A study of Arabidopsis thaliana with 6 samples.

Results

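The loci described here are transposon and pseudogene loci around the centromere of Arabidopsis thaliana chromosome 5, measured in unopened flower buds. They were taken by annotation alone: a probe set (a group of short oligonucleotides on the array that together read 1 transcript) belonged to them if the array annotation assigned it to exactly 1 gene, if RefSeq gives that gene the type pseudogene, and if its locus tag lies from AT5G27500 to AT5G37500. In Arabidopsis the RefSeq type pseudogene takes in transposable element genes, and the table used here does not part them from other pseudogenes or name their families. The rule gave 80 probe sets, 1 for each of 80 loci, of 22746 probe sets tested. RefSeq lists 655 pseudogene-type loci between these locus tags, so the values cover 80 of 655.

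The tested plants carried a ddm1 mutation and are labelled as inbred generation F6, and the control plants were wild type of the Columbia (Col) accession. Each genotype has 3 arrays, which the series describes as biological replicates, and the labels give neither the ddm1 allele nor the number of plants behind an array. Both genotypes grew on soil in long days, and only the ddm1 arrays carry an inbred generation, so loss of DDM1 and the generations of inbreeding cannot be told apart. Flower buds hold many cell types, and in such bulk RNA fewer cells of a type and less RNA per cell cannot be told apart.

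DDM1 is a chromatin remodelling protein of the SWI/SNF kind that is needed to keep DNA methylation on transposons and other repeats. The repeats lie densely in the heterochromatin on both sides of the centromeres, where methylated DNA and histone H3 methylated at lysine 9 normally keep them silent. Without DDM1 many of them lose methylation and are transcribed, and the lost methylation can be inherited by later generations. Chromosome 5 has such a block of repeats and silent elements around its centromere.

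By annotation the region is rich in pseudogene-type loci, although gene type alone shows neither where the centromere lies nor which loci are transposons. Of the 1146 RefSeq loci between the bounding locus tags 57.2% are pseudogene-type, compared with 2.08% of the loci on the rest of chromosome 5 and 10.3% over all 5 chromosomes. The region also holds 414 protein-coding loci in RefSeq. The mix is uneven: from AT5G35000 to AT5G37500 RefSeq lists 139 pseudogene-type and 228 protein-coding loci.

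The deposited values are log2 expression values from which a baseline of each probe set was subtracted, so they show differences between arrays and not levels. Exact zeros occurred in 71 of the 80 probe sets. A value near 0 in all 6 arrays therefore says only that the arrays did not differ, and whether such a locus was silent or expressed alike in both genotypes is unknown. The median over all probe sets of an array lay between -0.00642 and 0.0175 in ddm1 and between 0 and 0.00681 in wild type. No 2 arrays were copies, with correlations from 0.843 to 0.899 between arrays of 1 genotype over all probe sets.

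Of the 80 loci, 14 rose in ddm1, none fell, and 66 were not called. The call is an adjusted p under 0.05 from limma with Benjamini-Hochberg adjustment over all 22746 probe sets. With array weights 23 loci were called higher, 17 of them at least 2-fold. That fit weighted ddm1 replicate 2 at 5.59 and replicates 1 and 3 at 0.38 and 0.32. The share of all probe sets called with these weights was not counted, so the 23 have no background beside them. The shares below belong to the fit without weights. Each of the 14 passed 2-fold, their median log2 difference was 3.53, and 5 exceeded 16-fold. This is 17.5% of the loci, where 3.5% of all probe sets were called higher, 1.67% were called higher at least 2-fold and 5.68% were called lower. At an unadjusted p under 0.05 in limma, 22 of the 80 differed, 0 of them lower in ddm1. At that threshold 5262 of all 22746 probe sets differed in either direction, and 257 of the 843 pseudogene-type probe sets outside the region. The lowest difference among the 80 was -0.02 at AT5G28790, and the median over all 80 was 0.06 on the log2 scale, beside 0.00445 for all probe sets.

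Complete separation of the arrays was wider than the calls. At 25 of the 80 loci every ddm1 array lay above every wild type array, and at none did every ddm1 array lie below. Over all probe sets 10.4% had every ddm1 array above and 16.7% every ddm1 array below.

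**Figure D1:**
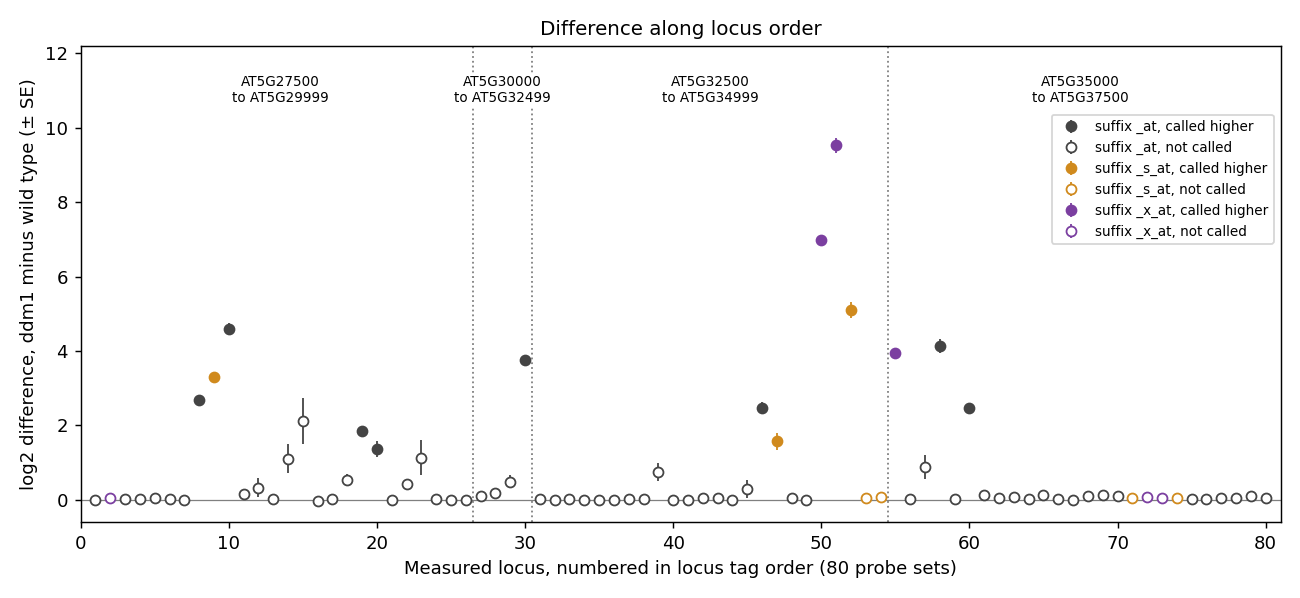
Log2 difference of ddm1 minus wild type with the standard error of the limma fit (vertical axis) for the 80 loci in locus tag order (horizontal axis), coloured by probe set suffix and filled where called higher. The 14 filled points stand in 8 separate places, the highest at 9.53, and the 20 loci at the right end all lie between 0.00810 and 0.14.

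The loci that rose stood in 8 places along the locus order, separated by loci that did not. The runs held 3 adjacent measured loci from AT5G28270 to AT5G28570, 2 at AT5G28880 and AT5G28890, 2 at AT5G34800 and AT5G34820, and 3 from AT5G34895 to AT5G34920. Single loci followed at AT5G32490, AT5G35010, AT5G35150 and AT5G35250. Adjacent here means next to each other among the measured loci, and unmeasured loci lie between them.

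The highest differences lay in the run from AT5G34895 to AT5G34920. AT5G34900 had values of 3.89, 3.66 and 3.73 in the 3 ddm1 arrays, against -6.21, -5.47 and -5.64 in wild type. It rose by 9.53 ± 0.20 (log2 difference ± SE of the fit, n = 3 arrays per genotype, limma adjusted p = 7.21e-06). The ddm1 arrays lay within a narrow band and the wild type arrays far below it.

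AT5G34895, the locus before it, gave 5.68, 5.59 and 5.51 in ddm1, against -1.40, -1.40 and -1.39 in wild type. Its rise was 6.99 ± 0.05 (limma adjusted p = 1.08e-07), the lowest adjusted p of the 80. AT5G34920 gave 3.32, 3.41 and 3.54 in ddm1, against -1.43, -2.15 and -1.41 in wild type, a rise of 5.09 ± 0.22 (limma adjusted p = 0.000151). In all 3 loci of the run the groups were separated by more than 4 log2 units. AT5G34895 and AT5G34900 were read by _x_at and AT5G34920 by _s_at probe sets. These suffixes mark probe sets whose oligonucleotides can also match other transcripts, so each of the 3 values may combine several related loci, and whether the 3 read shared transcripts was not tested.

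Immediately after this run 2 further _s_at probe sets, at AT5G34950 and AT5G34990, differed by 0.06 ± 0.07 and 0.09 ± 0.08 and were not called. The next locus, AT5G35010, again an _x_at probe set, gave 3.36, 3.28 and 3.21 in ddm1, against -0.68, -0.67 and -0.67 in wild type. It rose by 3.95 ± 0.04 (limma adjusted p = 5.99e-07), with the groups well apart.

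Among probe sets with the plain _at suffix, which are designed to read a single transcript, 8 of 67 rose. AT5G28570 gave 3.67, 3.74 and 4.29 in ddm1, against -0.71, -0.69 and -0.68 in wild type, a rise of 4.59 ± 0.17 (limma adjusted p = 7.91e-05). AT5G35150 gave 3.02, 3.07 and 2.55 in ddm1, against -1.16, -1.52 and -1.11 in wild type, a rise of 4.14 ± 0.18 (limma adjusted p = 0.000171). AT5G32490 gave 4.07, 3.57 and 3.58 in ddm1, against -0.03, -0.02 and 0 in wild type, a rise of 3.76 ± 0.14 (limma adjusted p = 9.23e-05). At these 3 loci, the highest plain _at differences, the ddm1 arrays lay within 0.7 of each other. They are spread over the region, in 3 of the 8 places.

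The remaining plain _at rises were smaller. AT5G28270 gave 2.81, 2.67 and 2.46 in ddm1, against -0.06, -0.06 and 0 in wild type (rise 2.69 ± 0.09). AT5G35250 gave 2.66, 2.17 and 2.42 in ddm1, against -0.10, -0.04 and -0.03 in wild type (rise 2.48 ± 0.12). AT5G34800 gave 2.00, 1.57 and 2.21 in ddm1, against -0.56, -0.54 and -0.52 in wild type (rise 2.46 ± 0.16). Limma adjusted p-values of the 3 were at most 0.000921, and at each of them every ddm1 array lay at least 2-fold above the highest wild type array.

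AT5G28880 and AT5G28890, neighbours in the measured order, both rose, by less than 2 log2 units. AT5G28880 gave 1.57, 1.90 and 1.86 in ddm1, against 0, -0.13 and -0.12 in wild type (rise 1.86 ± 0.10, limma adjusted p = 0.000359). AT5G28890 gave 1.11, 1.77 and 1.01 in ddm1, against -0.00507, 0 and -0.19 in wild type (rise 1.36 ± 0.21, limma adjusted p = 0.0199). AT5G28890 overlaps another RefSeq locus, AT5G04875, of the type misc_RNA, and was the 1 member of the 80 to overlap one, so signal of the 2 loci could not be parted here. Its call, together with that of AT5G34820, was lost in 5 of the alternatives run, among them each fit without a wild type array (limma adjusted p = 0.0569 to 0.0703).

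The other called _s_at loci were AT5G28430 and AT5G34820. AT5G28430 gave 3.06, 3.07 and 3.02 in ddm1, against -0.15, -0.44 and -0.20 in wild type (rise 3.31 ± 0.08, limma adjusted p = 1.19e-05). AT5G34820 gave 2.08, 1.35 and 1.24 in ddm1, against -0.04, -0.03 and 0 in wild type (rise 1.58 ± 0.23, limma adjusted p = 0.0161). The ddm1 arrays agreed closely at AT5G28430 (SD 0.0267) and less at AT5G34820 (SD 0.458), where replicate 1 stood above the other 2.

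**Figure D2:**
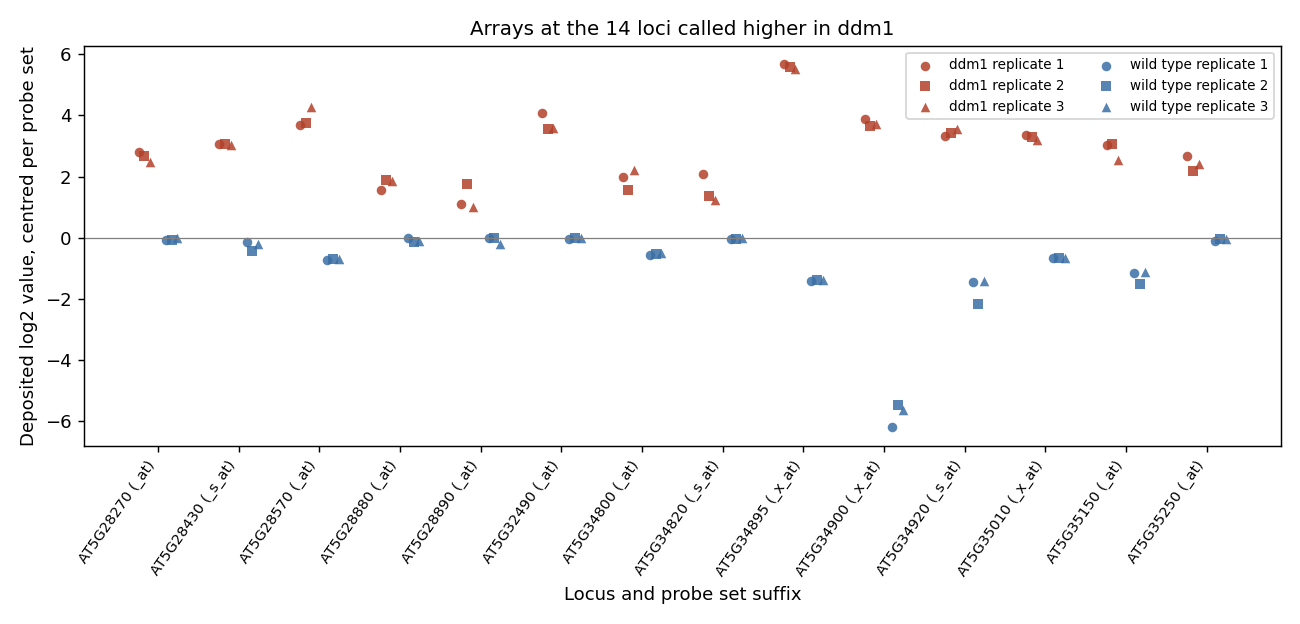
Deposited log2 values, centred per probe set (vertical axis), of each array at the 14 loci that rose, with ddm1 in red to the left of wild type in blue and 1 marker shape per replicate. At every locus the 3 ddm1 arrays lie above the 3 wild type arrays, from 1.01 at AT5G28890 up to 5.68 at AT5G34895, and wild type reaches -6.21 at AT5G34900.

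Where the baseline fell differed among the 14 loci. At 7 of them (AT5G28570, AT5G34800, AT5G34895, AT5G34900, AT5G34920, AT5G35010 and AT5G35150) the ddm1 arrays all lay over 0.25 above 0 and the wild type arrays all over 0.25 below it, so the baseline stood between the genotypes. At the other 7 at least 1 wild type array lay within 0.25 of the baseline. No further locus of the 80 had the baseline between the genotypes. Which arrays set the baseline is not given.

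By probe set suffix, 8 of the 67 plain _at probe sets rose at least 2-fold (11.9%), 3 of the 7 _s_at (42.9%) and 3 of the 6 _x_at. Over the whole array the same call was made for 1.16% of plain _at, 7.7% of _s_at and 44.4% of _x_at probe sets. The median difference of the risen loci was 2.58 for _at, 3.31 for _s_at and 6.99 for _x_at on the log2 scale. The 3 _x_at probe sets that did not rise, at AT5G28110, AT5G36090 and AT5G36650, differed by 0.06, 0.07 and 0.05.

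Pseudogene-type probe sets elsewhere in the genome showed the same order of suffixes. Of 667 plain _at probe sets outside the region 15.3% rose at least 2-fold, of 104 _s_at 45.2% and of 72 _x_at 68.1%. By chromosome the plain _at share was 15.8% of 133 on chromosome 1, 15.1% of 219 on chromosome 2, 14.6% of 157 on chromosome 3 and 14.3% of 133 on chromosome 4. On the rest of chromosome 5 it was 24.0% of 25. With all suffixes together, 17.5% of the 80 and 23.5% of the 843 others rose at least 2-fold, and the median difference of the risen ones was 3.53 in the region and 4.90 elsewhere. These shares are set side by side without a test.

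**Figure D3:**
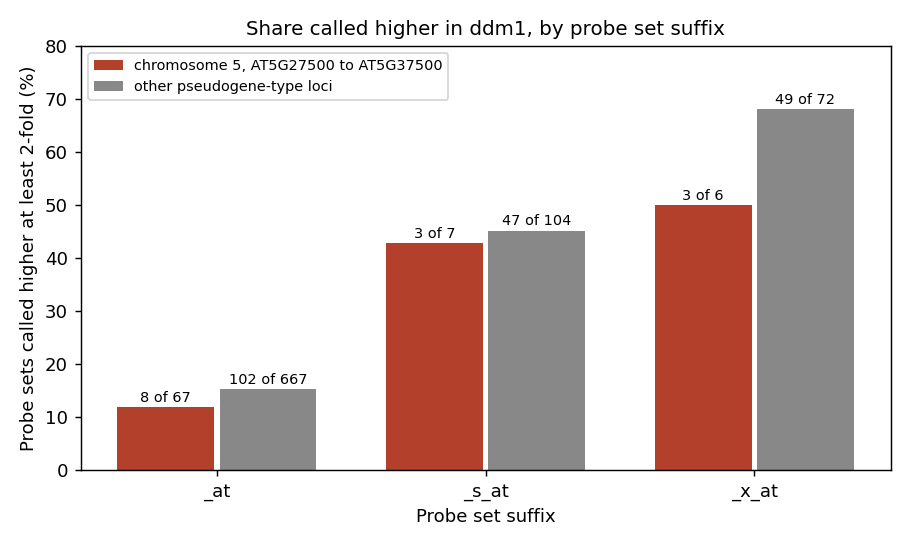
Share of probe sets called higher in ddm1 at least 2-fold (vertical axis, percent) by probe set suffix, with the chromosome 5 loci in red and all other pseudogene-type loci in grey, and the counts above the bars. In both sets the share is lowest for _at probe sets (8 of 67 and 102 of 667) and highest for _x_at probe sets (3 of 6 and 49 of 72).

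The rises were counted in 4 stretches of the locus order. From AT5G27500 to AT5G29999, 5 of 26 measured loci rose, from AT5G30000 to AT5G32499 1 of 4, from AT5G32500 to AT5G34999 5 of 24, and from AT5G35000 to AT5G37500 3 of 26. The second stretch is thinly covered, with 4 of the 142 pseudogene-type loci that RefSeq lists there measured. In the third, 4 of the 5 rises were read by _s_at or _x_at probe sets, and 1 of its 18 plain _at probe sets rose. Over the whole array 3.5% of all probe sets were called higher, and 1.16% of plain _at ones at least 2-fold. The stretches also differ in suffix, with 24 of 26 plain _at in the first and 18 of 24 in the third. The counts are small, and whether the stretches differ was not tested.

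The longest stretches without a call were the last 20 measured loci, from AT5G35260 to AT5G37330, and 15 loci from AT5G32510 to AT5G34790. In the last 20 the differences ran from 0.00810 to 0.14 with a median of 0.06. In the 15 they ran from -0.00254 to 0.75 with a median of 0.02. The 7 measured loci at the other end, from AT5G27900 to AT5G28240, differed by 0.00198 to 0.06.

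Risen and other loci overlapped in how many pseudogene-type loci surround them. Within windows of 25 consecutive RefSeq loci centred on each locus, the median number of pseudogene-type loci was 12.5 (range 7 to 24) for the 14 risen loci and 14.5 (range 3 to 24) for the 66 others. The 15 uncalled loci from AT5G32510 to AT5G34790 had a median of 20, and the last 20 loci a median of 10, so the long uncalled stretches lie both in dense and in sparse surroundings.

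The bounds of the region do not mark an end of the rises. The first pseudogene-type probe set before it, AT5G27480, differed by 0.02 ± 0.11, whereas AT5G27180, 2 measured loci further out, gave 3.27, 3.37 and 3.42 in ddm1, against -4.98, -4.96 and -4.93 in wild type. Beyond the other bound the nearest probe set, AT5G37880, gave 2.91, 3.07 and 3.50 in ddm1, against -2.43, -2.31 and -2.35 in wild type. Not every locus near the bounds rose. AT5G27190, between AT5G27180 and AT5G27480, differed by 0.70 ± 0.35 and was not called (limma adjusted p = 0.307). Past AT5G37880, AT5G38035 and AT5G38870 differed by 0.02 and 0.00717. On the rest of chromosome 5, 6 of 25 pseudogene-type probe sets were called higher. Just inside the bounds AT5G27900 differed by 0.00861 and AT5G37330 by 0.06.

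Most of the 66 loci without a call hardly varied at all. At 44 of them the 6 arrays lay within 0.25 of each other, which is 44 of the 80 in all, beside 44.7% of all probe sets. Among the 66, ddm1 replicate 3 was the highest of the 3 ddm1 arrays at 53 (80.3%), replicate 2 at 7 and replicate 1 at 6, whereas over all probe sets replicate 3 was the highest in 49.7%. Over all 80 loci replicate 3 was the highest at 56, and among the 843 other pseudogene-type probe sets in 74.3%. At the 14 risen loci replicate 1 was the highest at 7, replicate 2 at 4 and replicate 3 at 3. The median of the 66 uncalled loci was -0.00486, 0.0203 and 0.0796 in ddm1 replicates 1, 2 and 3, against -0.0147, 0 and 0.0148 in the wild type replicates. Among the uncalled loci the highest ddm1 value was thus most often in replicate 3. At 11 of the 66 every ddm1 array lay above every wild type array. The part of replicate 3 in the small positive differences was not tested.

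The spread among arrays was compared next. The SD over the 3 arrays was larger in ddm1 at 70 of the 80 loci (87.5%), and in 64.6% of all probe sets. Its median over the 80 loci was 0.0810 in ddm1 and 0.0217 in wild type, beside 0.0770 and 0.0636 over all probe sets. The ddm1 spread of the 80 was thus near that of all probe sets, and their wild type spread was smaller. Other pseudogene-type loci had a larger ddm1 SD in 85.8% of 843, with medians of 0.0664 in ddm1 and 0.0222 in wild type, so this spread is not particular to the region. Within the 80, the ddm1 SD was larger at 59 of the 66 uncalled loci and at 11 of the 14 risen ones.

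**Figure D4:**
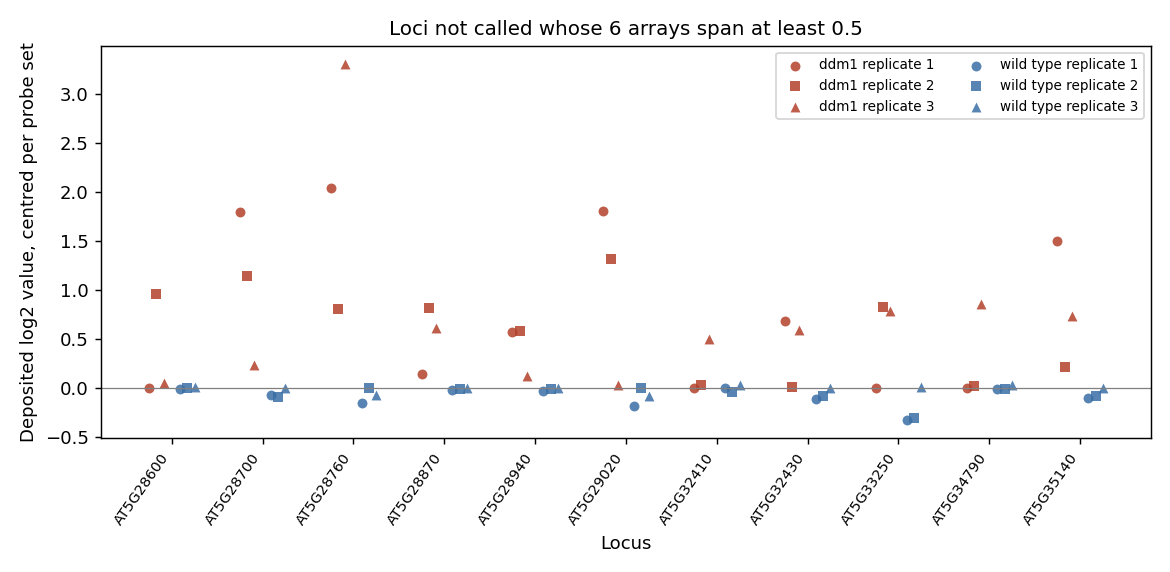
Deposited log2 values, centred per probe set (vertical axis), at the 11 uncalled loci whose 6 arrays span at least 0.5, with ddm1 in red to the left of wild type in blue and 1 marker shape per replicate. The wild type arrays lie close to 0, from -0.33 to 0.03, and which ddm1 array is highest changes from locus to locus.

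At 4 uncalled loci some but not all ddm1 arrays lay at least 2-fold above the highest wild type array. This is 5% of the 80, beside 1.40% of all probe sets and 4.51% of the pseudogene-type probe sets outside the region. The largest difference without a call was at AT5G28760, with 2.04, 0.80 and 3.30 in ddm1, against -0.15, 0 and -0.07 in wild type (difference 2.12 ± 0.62, limma adjusted p = 0.116). Without ddm1 replicate 2 it was called, at 2.75 (limma adjusted p = 0.0292). AT5G29020 gave 1.81, 1.31 and 0.03 in ddm1, against -0.19, 0 and -0.09 in wild type (difference 1.14 ± 0.46, limma adjusted p = 0.221). AT5G28700 gave 1.79, 1.14 and 0.23 in ddm1, against -0.07, -0.10 and 0 in wild type (difference 1.11 ± 0.39, limma adjusted p = 0.173). In the last 2 loci ddm1 replicate 3 was the low array, and both were called without it, at 1.65 and 1.52 (limma adjusted p = 0.0152 and 0.0298).

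AT5G35140, the fourth, gave 1.495, 0.22 and 0.73 in ddm1, against -0.11, -0.08 and 0 in wild type (difference 0.88 ± 0.32, limma adjusted p = 0.188). Other loci stood out in a single ddm1 array. AT5G28600 gave -0.00124, 0.95 and 0.05 in ddm1, against -0.00782, 0 and 0.01 in wild type. AT5G34790 gave 0, 0.02 and 0.85 in ddm1, against -0.00580, -0.01 and 0.03 in wild type. At AT5G28600 replicate 2 was the high array and at AT5G34790 replicate 3, and the other ddm1 arrays there lay within 0.1 of wild type.

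Among the 10 measured loci from AT5G28700 to AT5G29020, 2 rose and 3 more had 2 ddm1 arrays at least 2-fold above wild type. AT5G28940 lies in the same stretch and gave 0.57, 0.58 and 0.12 in ddm1, against -0.03, -0.01 and 0 in wild type. AT5G29040 lies just beyond the stretch, is typed as a transcribed pseudogene and so is not among the 80, and gave 0.43, 0.57 and 0.02 in ddm1, against -0.01, -0.01 and 0 in wild type. In AT5G28700, AT5G28940, AT5G29020 and AT5G29040 replicate 3 was thus the lowest ddm1 array. In AT5G28760 it was the highest, and in AT5G28870, with 0.15, 0.82 and 0.61 in ddm1, against -0.02, -0.00690 and 0 in wild type, replicate 1 was the lowest. None of these 6 was called, and they were picked after their values were seen.

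Genes of other types lie between the same locus tags. Of 158 protein-coding probe sets 7 rose (4.43%), 4 of them at least 2-fold (2.53% of the 158), and 5 fell. Of all 12374 protein-coding probe sets 2.22% rose, 0.687% rose at least 2-fold and 686 fell, a comparison made without a test. The median difference of the 158 was 0.00677, beside 0.06 for the 80 loci. AT5G28560 rose most, with 3.66, 4.10 and 3.91 in ddm1, against -0.12, -0.11 and -0.02 in wild type (rise 3.97 ± 0.11, limma adjusted p = 2.48e-05). In RefSeq order it is the locus directly before AT5G28570, which rose by 4.59, whereas AT5G28590, 2 loci beyond AT5G28570, differed by 0.00424 ± 0.03 and was not called. The others past 2-fold were AT5G35735, which rose by 2.79 ± 0.38, AT5G35480, by 2.37 ± 0.16, and THI2.2, a gene for a thionin, a small antimicrobial peptide, by 2.11 ± 0.19 (limma adjusted p at most 0.0135). AT5G37360 rose by less than 2-fold, at 0.40 ± 0.04. Of the 6 transcribed pseudogenes in the region 1 rose, AT5G28230, with 1.70, 1.29 and 2.35 in ddm1, against -0.01, -0.00570 and 0 in wild type (rise 1.79 ± 0.27, limma adjusted p = 0.0175).

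Measured genes next to the risen loci were looked at as well. Within 5 RefSeq loci on either side, 7 of the 14 risen loci had a measured neighbour of a non-member type, 13 probe sets in all, of which 1 rose (AT5G28560) and 1 fell. Over all probe sets 3.5% were called higher and 5.68% lower, so 1 of 13 in each direction is not below that background. The fall was at AT5G34930, 2 loci from AT5G34920, with -0.58, -0.39 and -0.30 in ddm1, against 0.30, 0.11 and 0.15 in wild type (-0.61 ± 0.09, limma adjusted p = 0.0173). The median difference of the 13 was 0.00683.

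The annotation named no gene for 8730 probe sets, so a listed gene may be on the array without being matched here. Of 33 listed genes that act in DNA methylation and heterochromatin, 3 were matched, by 5 probe sets. None rose, and 2 fell, AT2G30620 and AT1G06760, which encode the linker histones H1.2 and H1.1, by -0.35 ± 0.05 and -0.18 ± 0.04 (limma adjusted p = 0.0149 and 0.0492). The 3 probe sets of DME, a DNA demethylase gene, differed by -0.06, 0.01 and 0.15 and were not called. DDM1 was not analysed here, and the genotype labels therefore stand unchecked by its level. Some cell type markers differed as well: 6 of 11 measured pollen genes (14 listed) and 2 of 3 tapetum genes (7 listed) fell, and 1 of 3 green tissue genes (5 listed) rose. Over all probe sets 5.68% were called lower and 3.5% higher. The pollen genes did not move alike, with differences from -3.61 at AtVEX1 to 0.03 at ACT11 and a median of -0.72. The mean centred value of the pollen genes was -1.02 to -0.81 in the ddm1 arrays, against 0.01 to 0.11 in wild type. For tapetum it was -1.04 to -0.66 in ddm1 and 0.15 to 0.33 in wild type, and for green tissue 0.17 to 0.28 in ddm1 and -0.12 to -0.04 in wild type. Their part in the rises was not tested.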

How the data were processed

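Amplified, biotin-labelled bud RNA was read on 1-colour arrays, per the labels' protocols. Per the submitters' processing notes the authors used GCRMA; its version and the baseline are unstated. The deposited log2 values are centred per probe set. Base 2 was inferred from GCRMA and the range of the values, -10.03 to 8.57. Dim signals are compressed by GCRMA, so differences against a group near background may be understated, and no filter on dim probe sets could be set.

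Of 22810 probe sets 64 controls were left out. The annotation gave 1 gene for 13513 of the other 22746, several for 503 and none here for 8730. By gene number, 13367 were matched to nuclear loci of RefSeq TAIR10.1, used for types and locus order only. The members, gene lists and rule for named genes (the called members with the largest and smallest rises, the 3 largest differences not called, and called list genes) were chosen with earlier results of these data known.

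The genotypes were set against each other in R 4.3.3 with limma 3.58.1 (lmFit and eBayes, 6 arrays, two-sided, Benjamini-Hochberg over 22746 probe sets), tested on simulated data. Tables and figures used Python 3.11.15, pandas 2.3.3 and matplotlib 3.10.9. The 3 arrays per genotype limit the precision. The alternatives were centrings, variance models, array weights, a replicate block, leaving out each array, plain _at probe sets, other locus bounds and gene types, and loci as the unit.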

Additional observations from a re-analysis of the deposited data

How the results depend on the processing

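Direction was followed at the 14 risen loci and the 3 largest uncalled ones, and there none turned under any alternative run. This says little, because at each of them every ddm1 array lay above every wild type array. Leaving out an array could therefore not turn them. The variance models, the replicate block and the plain _at fit left the differences unchanged. The count of 0 lower loci was the same in every alternative, and the lowest difference in the fit of all arrays was only -0.02. Of 215 values for the 14 risen loci and the 3 largest uncalled ones, 10 lost a call (AT5G28890 and AT5G34820, 5 each). Another 5 gained one, and 200 did not change side of the threshold, although some of their sizes moved. Array weights gave 23 higher loci in place of 14 (17 at least 2-fold), with a weight of 5.59 for ddm1 replicate 2. The share of all probe sets called with these weights was not counted. Adjusting among plain _at probe sets gave 8, all at least 2-fold, and bounds of AT5G30000 to AT5G35000 gave 6, both because fewer loci were counted. Bounds of AT5G25000 to AT5G40000 gave 18. Leaving out 1 array gave 12 to 17 higher loci, 12 to 16 of them at least 2-fold and 0 lower. The difference at AT5G28760, 2.12 in the fit of all arrays, moved to 1.06 with array weights and to 1.49 without ddm1 replicate 3, not called. The labels state no pairing of the arrays, and the main fit used none. Same-numbered arrays of the genotypes correlated at 0.0752, 0.0900 and 0.0159 in their deviations from the genotype mean, and other pairs at -0.0907 to 0.0229. Replicates 1 and 2 thus correlated weakly with their same-numbered array, above every other pair, and whether the numbers pair the arrays was not tested. With a replicate block 12 loci were higher, AT5G28890 and AT5G34820 not being called (limma adjusted p = 0.0586 and 0.0694). For changes given without a reason the cause was not tested. Signal over background is unknown for centred values.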
